A study of Mus musculus with 6 samples.

Results

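The annexins, their S100 partners, the scaffold protein gene *Ahnak* and the raft protein gene *Myadm* were followed in mouse neuroblastoma cells with less *Npm1*. The 10 genes were *Anxa1*, *Anxa2*, *Anxa4*, *Anxa5*, *Anxa6*, *S100a6*, *S100a10*, *S100a11*, *Ahnak* and *Myadm*, found by symbol among the 26656 genes of the deposited table. They had been chosen by name with this comparison of the same libraries known. Their differences between conditions are therefore a description, and calls given for them below are no test of them. N2a (Neuro-2a) cells, a mouse neuroblastoma line of WT genotype, were transfected with pLKO.1-shNpm1, a plasmid encoding a short hairpin RNA against *Npm1* (NPM1 KD), or with pLKO.1-shCTR, a non-targeting control plasmid (CTR). Cells of both conditions were kept for 72 h (day 3 in vitro), and the protocol given for all 6 samples states selection with 9.3 µg/ml puromycin from 24 h onwards. There were 3 libraries per condition, sequenced as PCR-amplified cDNA in long nanopore reads, and each condition rests on 1 hairpin. The study aimed to see whether the transcriptome of N2a cells moved along with H3K79me2, a histone mark, when NPM1 was reduced.

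Annexins bind acidic phospholipids of membranes when calcium rises and form a link between the membrane and the actin cortex beneath it. Small EF-hand proteins of the S100 family pair with particular annexins: a dimer of S100A10 holds a pair of annexin A2 molecules in a heterotetramer, which in turn binds the giant scaffold protein AHNAK, and S100A11 and S100A6 can bind annexins as well. MYADM is a multi-pass membrane protein of the MARVEL domain group found in ordered, cholesterol-rich membrane patches (rafts), where it is linked to the small GTPase Rac1 and to cell spreading. These proteins are known for roles in membrane repair, exocytosis and endocytosis.

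The values were regularized log (rlog) values, log2-scaled and given for each gene in each library, normalized for library size and pulled towards the mean of each gene. Any value of 1 or more in size was deposited as a whole number, so each can be off by up to 0.5 and a difference of group means by up to 1. Genes were tested where the rlog value averaged log2 of 10 or more, and of these 5752 genes 40.2% had 1 value in all 6 libraries. *Npm1*, the gene targeted by the hairpin, stood at 10 throughout CTR against 8 throughout NPM1 KD (difference −2.0, SE 0.33, n = 3 per condition, limma adjusted p = 3.23e-06). The SE here and below comes from the limma fit, in which genes of similar level share their variance. Markers of sympathoadrenal neuroblasts, the lineage of this line, were present with 7 of 12 above the limit, while all 20 markers of Schwann cells, epithelium, macrophages and endothelium were below it. *Sox10*, *Ptprc*, *Csf1r*, *Kdr* and *Cdh5* were among those at 0 in every library. The summed linear level (2 to the power of the rlog value) of the neuroblast list ranged from 1360 to 1490 in CTR and from 799 to 879 in NPM1 KD. For the mesenchymal list it ranged from 551 to 583 in CTR and from 151 to 279 in NPM1 KD. Only *Vim* and *Fn1* of its 11 genes passed the limit. *Vim*, at 9 in every CTR library and at 7, 8 and 8 in NPM1 KD, made up most of this sum. The terms of both sums carry the rounding of the rlog values. Both *Vim*, which encodes the intermediate filament vimentin (difference −1.33, SE 0.34, limma adjusted p = 0.026), and *Fn1*, which encodes fibronectin (−1.67, SE 0.33, limma adjusted p = 0.00038), were lower in NPM1 KD. Of the tested neuroblast genes, 2 of 7 were called lower, *Chga* and *Chgb*, which encode chromogranins, beside 0.417% of all tested genes, and 4 of the 7 had all NPM1 KD libraries below all CTR libraries, beside 3.41%. Both sums were lower in the same libraries as the genes described next, and their part in those values was not tested. In bulk RNA, fewer cells of a kind and less RNA per cell cannot be told apart.

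*Myadm* (ENSMUSG00000068566) had the lowest NPM1 KD values relative to CTR of the 10 genes. Its rlog values were 7, 7 and 8 in CTR replicates 1 to 3, whereas each NPM1 KD library was at 5. All NPM1 KD libraries lay below all CTR libraries, with a gap of 2 between the groups. The group means were 7.33 ± 0.58 and 5.00 ± 0.00 (SD, n = 3), a difference of −2.33 (SE 0.34), and rounding allows any difference between −3.33 and −1.33. Of the 5752 genes, 2 had a difference this low, *Myadm* itself and *Aldoc*, which was named only after its value had been seen and encodes the glycolytic enzyme aldolase C. No other gene had the 6 deviations from its CTR mean that *Myadm* had.

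*Anxa2* (ENSMUSG00000032231), which encodes the annexin of the S100A10 complex, was the other gene of the 10 whose groups did not overlap on the rounded rlog values. CTR stood at 8, 7 and 7, and NPM1 KD at 6, 6 and 6. The means of 7.33 ± 0.58 and 6.00 ± 0.00 (SD, n = 3) differed by −1.33 (SE 0.35), with limits from rounding of −2.33 and −0.33. A difference at least this low was found for 25 genes, 0.435% of those tested, and 7 genes including *Anxa2* shared its 6 deviations.

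Promoter sequence was at hand in RefSeq (GRCm38.p6, 250 bases before to 50 after each annotated start) for 8 of the 10 genes, in 12 windows, and not for *Anxa6* and *S100a10*. The windows of the 2 genes with separate groups on the rlog values are printed, for *Myadm* the one of its 4 that held a match to the CArG box, the element bound by SRF, and for *Anxa2* its only one, with a match to the AP-1 motif TGANTCA. The matches are in capitals.
Anxa2 promoter, chr9:69453433-69453732, + strand: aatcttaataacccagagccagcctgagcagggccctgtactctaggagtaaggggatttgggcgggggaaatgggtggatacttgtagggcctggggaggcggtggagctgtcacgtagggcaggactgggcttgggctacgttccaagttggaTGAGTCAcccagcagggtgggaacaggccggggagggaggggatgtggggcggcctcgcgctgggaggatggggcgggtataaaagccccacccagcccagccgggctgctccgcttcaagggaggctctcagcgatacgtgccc
Myadm promoter, chr7:3292778-3293077, + strand: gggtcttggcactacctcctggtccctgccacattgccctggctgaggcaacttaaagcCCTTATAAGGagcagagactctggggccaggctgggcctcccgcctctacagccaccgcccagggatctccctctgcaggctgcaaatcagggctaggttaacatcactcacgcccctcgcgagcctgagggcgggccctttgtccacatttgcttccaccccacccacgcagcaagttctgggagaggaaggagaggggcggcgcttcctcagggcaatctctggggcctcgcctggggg

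*S100a10* (ENSMUSG00000041959), the light chain partner of annexin A2, had overlapping groups. All 3 CTR libraries were at 8, as was NPM1 KD replicate 1, while NPM1 KD replicates 2 and 3 were at 7. The difference was −0.67 (SE 0.35) against −1.33 for *Anxa2*, and rounding allows −1.67 to 0.33. The same size was seen for *Anxa6* (ENSMUSG00000018340), the annexin with the longest repeat core. For *Anxa6*, CTR stood at 8, 8 and 8 and NPM1 KD at 7, 7 and 8, so 1 NPM1 KD library stood level with the controls.

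*Anxa5* (ENSMUSG00000027712), the annexin used as a probe for exposed phosphatidylserine, was at 7 in 5 of the 6 libraries. NPM1 KD replicate 2 was at 6, and the difference was −0.33 (SE 0.35). *S100a6* (ENSMUSG00000001025), which encodes calcyclin, was at 11 in all 6 libraries. Its difference of 0.00 (SE 0.30) has limits of −1.0 and 1.0 from rounding, so a change of up to 1 on the log2 scale in either direction was not detectable.

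*Ahnak* (ENSMUSG00000069833) varied more among the CTR libraries than between the conditions. CTR stood at 6, 5 and 4, and NPM1 KD at 5, 5 and 4. The difference of −0.33 was smaller than the SD of 1.00 among the CTR libraries, and it became 0.17 without CTR replicate 1. The SE of this difference, 0.33, comes from the fit with shared variance and does not reflect the spread of the *Ahnak* libraries. A spread of 2 or more among the 3 CTR libraries was found for 2 of the 5752 genes (0.0348%), *Ahnak* and *Hmgn1*, a nucleosome-binding protein gene named after its values had been seen. With a longest coding transcript of 18.1 kb, *Ahnak* was also the longest of the 10 genes.

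**Figure D1:**
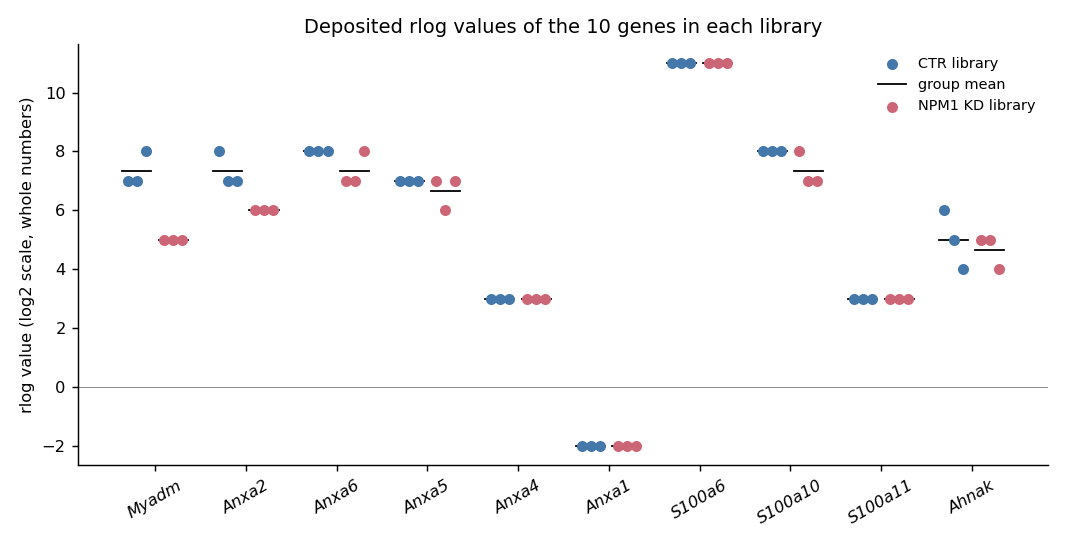
Deposited rlog values (y axis, log2 scale) of the 10 genes (x axis) in the 3 CTR libraries (blue) and the 3 NPM1 KD libraries (red), in replicate order from left to right, with group means as black lines. The 2 groups are apart for *Myadm* and *Anxa2*, share values for *Anxa6*, *Anxa5*, *S100a10* and *Ahnak*, and are level for *S100a6* at 11, for *Anxa4* and *S100a11* at 3 and for *Anxa1* at −2.

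Of the 10 genes, 7 passed the limit of log2 of 10 and entered the fit across all genes, and *Anxa1*, *Anxa4* and *S100a11* did not. The fit (limma with Benjamini-Hochberg adjustment over 5752 genes) called 2 of the 7 lower, *Myadm* and *Anxa2*, and 0 higher. Over all tested genes 24 (0.417%) were called lower and 4 (0.0695%) higher. Groups that did not overlap, with NPM1 KD below CTR, were likewise found for 2 of the 7 and for 3.41% of all tested genes. With NPM1 KD above CTR they were found for 0 of the 7 and 2.19%. The NPM1 KD mean was below the CTR mean for 6 of the 7, beside 27.4% of all tested genes. It was level for 1 of the 7, beside 2762 of the 5752. The 3 genes outside the fit were level on the deposited rlog values. Since this comparison chose the genes, nothing is read from these calls and shares. The call for *Anxa2* was lost when any 1 of the 6 libraries was left out.

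**Figure D2:**
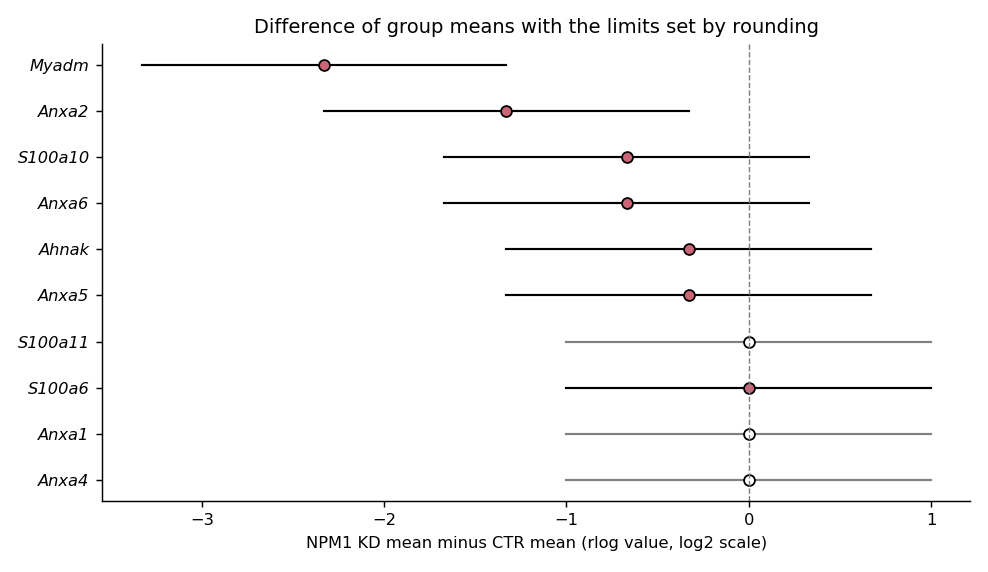
Difference of the group means of the rlog value (x axis, NPM1 KD minus CTR, log2 scale) for each of the 10 genes (y axis), with bars for the range that rounding to whole numbers allows. Red points are genes in the fit and open points are the 3 genes below its limit. The bars of *Myadm* (−3.33 to −1.33) and *Anxa2* (−2.33 to −0.33) lie below 0 and the other 8 cross it.

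The 10 genes differed widely in abundance. On the authors' mean normalized count over the 6 libraries, *S100a6* was highest at 2150, followed by *Anxa6* at 228, *S100a10* at 203, *Anxa2* at 133, *Anxa5* at 117, *Myadm* at 104 and *Ahnak* at 34.9. *Anxa4* at 9.78, *S100a11* at 9.31 and *Anxa1* at 0.128 were the lowest. Divided by the length of the longest coding transcript in kb, the order had *S100a6* (2940 per kb) ahead of *S100a10* (296), *Anxa2* (91.9), *Anxa6* (91.5), *Anxa5* (67.8) and *Myadm* (25.8). *S100a11* (18.2 per kb) followed, and then *Anxa4* (4.82), *Ahnak* (1.93) and *Anxa1* (0.0765). *Anxa2* and *Anxa6* were almost level per kb. Long reads can cover a whole transcript, so that both orders, with and without length, are given. These means pool both conditions and have no error.

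For genes with few reads, the counts before both the rounding and the pull towards the gene mean could be read from the other deposited column. A mean normalized count is a sum of whole reads, each divided by the relative depth of its library, and for low means mostly a single set of whole reads gives the deposited value. The relative depths of the CTR libraries were 1.24, 1.3 and 1.11, those of the NPM1 KD libraries 0.784, 0.833 and 0.961, so every NPM1 KD library was shallower than every CTR library. A single set was found for 95.6% of 9463 genes with a mean below 12.

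*Anxa4* (ENSMUSG00000029994), an annexin of secretory epithelia, was at an rlog value of 3 in every library, yet its reads differed. CTR held 18, 13 and 13 reads against 7, 7 and 5 for NPM1 KD, or 14.5, 9.98 and 11.7 against 8.93, 8.41 and 5.21 after division by depth. All NPM1 KD libraries thus lay below all CTR libraries, with means of 12 ± 2.28 and 7.51 ± 2.02 (SD, n = 3). How often genes with so few reads separate in this way was not computed. The log2 ratio of these means was −0.68. From the 44 and 19 reads summed over the libraries, the ratio of NPM1 KD to CTR was 0.611 with an exact 95% interval of 0.337 to 1.07, which covers counting error only and includes 1.

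*S100a11* (ENSMUSG00000027907), whose protein binds annexins A1 and A2, was likewise at 3 in every library and had very uneven reads. CTR held 17, 19 and 1 reads and NPM1 KD 14, 3 and 5. CTR replicate 3 and NPM1 KD replicates 2 and 3 were low while the rest were high, so that the means after division by depth, 9.73 ± 7.66 and 8.89 ± 7.81 (SD, n = 3), differed far less than the libraries within a condition. The ratio was 0.842 (exact 95% interval 0.473 to 1.47). The annotation also holds a pseudogene, *S100a11-ps*, and how reads were shared with it was not tested. *Anxa1* (ENSMUSG00000024659), which encodes the glucocorticoid-induced annexin also called lipocortin, had 1 read in all 6 libraries, in CTR replicate 2, and its rlog value of −2 throughout stands for near absence at this depth.

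**Figure D3:**
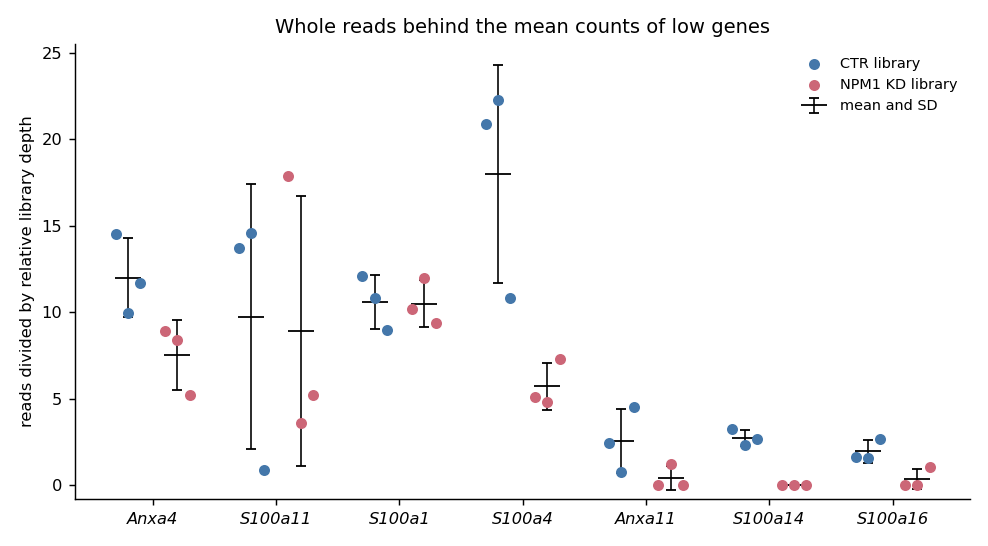
Reads divided by relative library depth (y axis) in the 3 CTR libraries (blue) and 3 NPM1 KD libraries (red) for 2 of the 10 genes and 5 other annexin and S100 genes with few reads, with mean and SD in black. *Anxa4*, *S100a4*, *S100a14* and *S100a16* have all NPM1 KD libraries below all CTR libraries, and *S100a11* spreads from 0.897 to 14.6 within CTR. The share of all genes with few reads that do so was not computed, so nothing is read from this number. *S100a4* is drawn on the set of reads chosen by the order of its rlog values.

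The other members of both families were mostly silent or near it. Of 7 further annexin genes, *Anxa3*, *Anxa8*, *Anxa10* and *Anxa13* were at 0 in every library and only *Anxa7*, an annexin of secretory vesicles, passed the limit. *Anxa7* was at 5 in all 6 libraries (difference 0.00, SE 0.33). *Anxa11*, which tethers RNA granules to lysosomes, had 3, 1 and 5 reads in CTR against 0, 1 and 0 in NPM1 KD, and *Anxa9* had 1, 0 and 1 against 0, 0 and 0.

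Of 14 further S100 genes, 13 were in the table, 6 of these were at 0 in every library and 2 passed the limit. *S100a13*, which takes part in the unconventional release of growth factors, stood at 5, 5 and 5 in CTR against 5, 4 and 4 in NPM1 KD (difference −0.67, SE 0.33, limma adjusted p = 0.33). *S100a4*, a partner of non-muscle myosin, stood at 4, 4 and 3 in CTR against 3 in every NPM1 KD library (−0.67, SE 0.40, limma adjusted p = 0.47). Neither passed the test. For *S100a4*, 4 sets of reads fit the mean count, and the only one in the order of the rlog values has 26, 29 and 12 reads in CTR against 4, 4 and 7 in NPM1 KD, with a log2 ratio of −1.65 after division by depth. Choosing by that order placed CTR replicates 1 and 2 above every NPM1 KD library, so the set is no support apart from the rlog values. On that set the ratio was 0.317 (exact 95% interval 0.168 to 0.561), further from 1 than the rlog values show. The interval covers counting error only, and neither the choice of set nor the spread between libraries. *S100a14* had 4, 3 and 3 reads in CTR and none in NPM1 KD. With NPM1 KD set to 3 reads over the group, it would be 2.35-fold lower. That value allows no error for the CTR reads and is not a bound. *S100a16* had 2, 2 and 3 reads against 0, 0 and 1. By contrast, *S100a1* had 15, 14 and 10 reads in CTR against 8, 10 and 9 in NPM1 KD, a ratio of 0.98 (exact 95% interval 0.577 to 1.64). With 3 libraries against 3, an exact two-sided permutation test of one such gene cannot go below p = 0.1, so no p is given for these reads.

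In the RefSeq annotation (GRCm38.p6), 15 genes named S100a lie on mouse chromosome 3, with *S100a11* and *S100a10* last in their order. Expression was uneven along it. *S100a6*, the most abundant of the 10 genes, has as its neighbours in this order *S100a5*, at 0 in every library, and *S100a7a*, with 2 reads in all 6. *S100a8*, *S100a9* and *S100a7l2*, next in order, were at 0 throughout, and *S100a10*, the second of the 10 genes per kb, is the outermost.

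Genes of related function were taken from 7 lists holding 144 genes, of which 62 were tested. None was called in either direction by limma with Benjamini-Hochberg adjustment (0 lower and 0 higher), while 10 were lower and 2 higher at an unadjusted p under 0.05, against 8.07% lower and 6.07% higher over all tested genes. In 3 of the 62 all NPM1 KD libraries lay below all CTR libraries and in 2 above, beside 3.41% and 2.19% of all tested genes, so nothing particular to the lists is read from the genes named for this below. The median difference of the 62 genes was 0.00, as over all tested genes (0.00), and that of the 7 tested genes of the 10 was −0.67. The lists were drawn up with earlier results of these libraries known. The 10 genes were chosen with this comparison known, so nothing is read from the contrast of the medians.

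The MARVEL and MAL family, to which MYADM is related, had 5 tested genes of 24, with 2 means lower and 3 level. *Sypl* was at 5 in all 6 libraries, and *Syngr1*, a synaptic vesicle protein gene, was at 5 apart from NPM1 KD replicate 1, at 4. No gene of this list had the separation seen for *Myadm*, which was itself chosen with this comparison known. Scaffolds of rafts and caveolae had 5 tested genes of 16 and a median difference of −0.33. *Cd24a*, a lipid-anchored surface protein gene, was at 7 in all 6 libraries, and *Stoml2*, a mitochondrial stomatin relative, was at 6 apart from NPM1 KD replicate 1, at 5. The lowest differences of this list, named after their values had been seen, were those of *Stom*, which encodes stomatin, at 6, 5 and 6 in CTR against 4, 5 and 5 in NPM1 KD (−1.0, SE 0.33, limma adjusted p = 0.0791), and of *Cavin2*, a caveola coat gene, at 6 throughout CTR against 5, 5 and 6 (−0.67, SE 0.34, limma adjusted p = 0.33). Neither passed the test.

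Linkers between membrane and cortex were well expressed, with 26 of 32 genes tested and a median difference of 0.00. *Tagln2*, an actin-bundling transgelin gene, was at 8 apart from NPM1 KD replicate 1, at 7, and *Marcksl1*, a relative of the actin-binding MARCKS gene, was at 7 in all 6. *Gap43*, a growth cone protein gene chosen here because its groups did not overlap, stood at 7 throughout CTR against 6 throughout NPM1 KD (−1.0, SE 0.35, limma adjusted p = 0.0791). It did not pass the test. The list of relatives of *Ahnak* and membrane repair factors had 9 of 23 genes tested, with 4 means higher, 4 level and 1 lower. *Capn2*, the catalytic subunit of calpain-2, was at 7, 6 and 6 in both conditions, and *Pdcd6ip*, the ESCRT adaptor ALIX, differed by 0.33 (SE 0.34). *Pdcd6*, the calcium sensor ALG-2 that recruits ALIX to damaged membranes, stood on the other side, at 5 throughout CTR against 6 throughout NPM1 KD (1.0, SE 0.34, limma adjusted p = 0.0791), and was named for this after its values had been seen.

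Of 28 other calcium-binding protein genes 14 were tested, with a median difference of −0.33. *Calm2*, a calmodulin gene, stood at 9 throughout CTR against 9, 8 and 8 in NPM1 KD (−0.67, SE 0.34, limma adjusted p = 0.33). Groups that did not overlap, noted after the values had been seen, occurred for *Calu* and *Rcn2*, EF-hand proteins of the secretory pathway (both −1.0), and for *Cib1* (1.0). All 3 had a limma adjusted p of 0.0791.

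**Figure D4:**
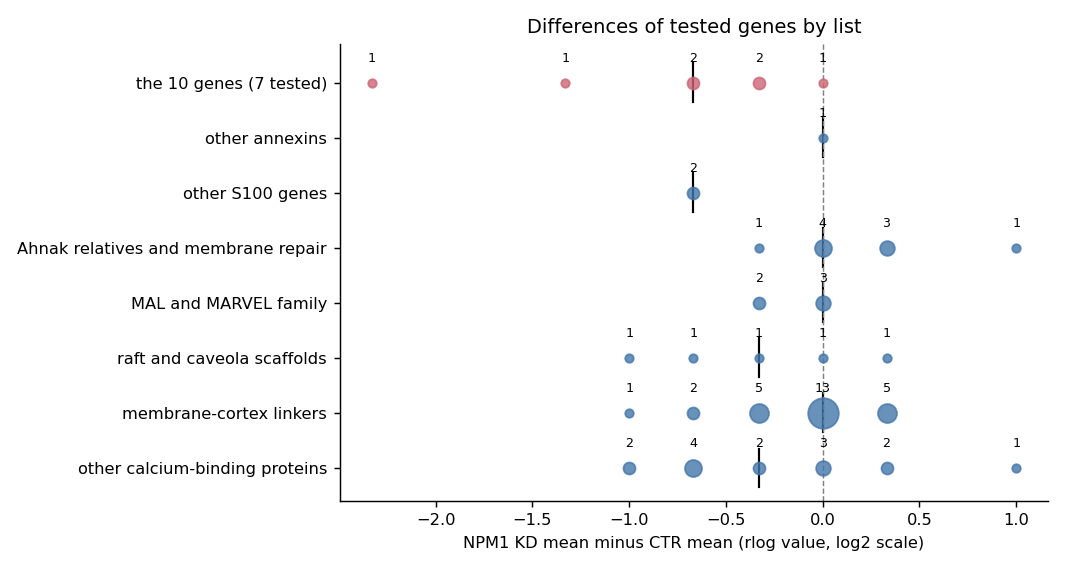
Differences of the rlog group means (x axis, NPM1 KD minus CTR, log2 scale) of the tested genes in each list (y axis). Circle area and the number above it give how many genes share a value, and black lines are medians. *Myadm* (−2.33) and *Anxa2* (−1.33) lie left of every gene of the 7 lists, whose differences run from −1.0 to 1.0.

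In the promoter windows printed for *Anxa2* and *Myadm*, the AP-1 match begins 95 bases before the annotated start of *Anxa2*, and the CArG match 191 bases before that *Myadm* start. Over all 32851 mouse windows, searched on both strands, 7.81% held TGANTCA and 1.63% a CArG box. Among the 10 genes TGANTCA was also in the window of *S100a11*, and a CArG box in that of *Anxa5*. GGGCGG, the core of the SP1 site, was in 35.7% of all windows and in 7 of the 12, including 3 of the 4 *Myadm* windows. Of these *Myadm* windows, those starting at 3290305 and 3290306 are almost the same sequence. By gene, GGGCGG was found for 5 of the 8. ACGTG, the core of the hypoxia response element, was in 19.6% of all windows and in those of *Anxa2*, *Anxa5*, *S100a6* and *S100a11*, and GGAATG, bound by TEAD factors, in 14.7% and in those of *Anxa1* and *Ahnak*. No motif searched was common to *Myadm* and *Anxa2* other than GGGCGG. A match describes letters only, and which of the *Myadm* starts N2a cells use was not analysed here.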

How the data were processed

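Long-read cDNA libraries of N2a cells, 3 CTR and 3 NPM1 KD, were grouped by their labels. The labels name 3 biological replicates in one place and 2 in another, so the spread between libraries may in part be technical. The limma SE and p-values rest on a variance shared among genes of similar level. They hardly follow the spread of a gene's own libraries. *Ahnak*, with CTR at 6, 5 and 4, and *Anxa7*, at 5 throughout, both had an SE of 0.33. The submitters' processing notes name minimap2, featureCounts, DESeq2 and GRCm39, with no versions. The authors deposited rlog values, which are treated here as a score per gene and library since they are rounded to whole numbers (only values between −1 and 1 keep decimals), and a mean normalized count per gene over all libraries. The authors' log2 fold changes, standard errors, statistics and p-values from their own comparison were not used. No column of values was left unassigned (0). The tables give no genome coordinates and no total reads per library. The mean normalized counts add up to 841220.

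Repeated identifiers (257) were dropped. Genes whose rlog values averaged log2 of 10 or more were fitted in limma 3.58.1 (R 4.3.3, lmFit and eBayes with trend), two-sided, with Benjamini-Hochberg adjustment and a threshold of 0.05, and within-group variances were raised to at least 0.0833, the variance that rounding adds. Whole reads were solved from the mean normalized counts in Python 3.11.15, and depths were assigned to libraries over 1933 genes (r = 0.998 to 0.999 with the own column). Both steps were tested on simulated data. Intervals of read ratios are exact binomial (95%) on summed reads and cover counting error only, as PCR copies are not independent molecules. Transcript lengths are from GENCODE M21. The 10 genes, the lists and the motifs were chosen with earlier results of these data known. Named from each list were genes called, or the 2 tested genes with the highest mean where fewer than 2 were called, every tested annexin and S100 gene, and any gene with the pattern of *Myadm*. Some genes under this rule are not reported here. The alternatives were other variance settings and filters, centring, group medians, a replicate block and each library left out. The robust variance estimate, the repeated identifiers and the whole reads were added after the data had been seen.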

Additional observations from a re-analysis of the deposited data

How the results depend on the processing

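*Npm1* was at −1.98 with the libraries centred and at −2.0 in the other fits, with a limma adjusted p of 0.00106 or less in each. Of all tested genes 4 were called higher and 24 lower. Without the variance limit these counts were 123 and 178, without the trend 132 and 218, with the filter at log2 of 40 they were 51 and 69, and with no filter 1 and 10. Leaving out 1 library gave 0 to 2 higher and 5 to 9 lower. Centring, the robust estimate and keeping repeated identifiers gave 4 and 24. With the replicate number as a block 1 gene was higher and 7 were lower, *Anxa2* not among them. The deviations of same-numbered libraries correlated at 0.0089, 0.0013 and 0.030. On values rounded to whole numbers, a small shared shift would be lost, so this cannot decide whether the numbers pair the libraries. *Anxa2* also lost its call without the variance limit and with no filter.

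Of the 7 lists, the filter at log2 of 40 called 1 gene lower (*Gap43*). Without the variance limit 3 were lower (*Calu*, *Gap43*, *Rcn2*) and 2 higher (*Cib1*, *Pdcd6*), and without the trend 4 were lower (*Stom* in addition) and the same 2 higher. The other fits called 0. The causes were not tested.

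The number of the 10 genes with a lower mean in NPM1 KD, 6, was 5 to 6 with 1 library left out and 4 by group medians. *Ahnak* turned from −0.33 to 0.17 without CTR replicate 1, the upper end of a range from −0.83. Whole reads, which are not pulled towards the gene mean as rlog values are, moved *Anxa4* from 0.00 to −0.68. With 1 library left out *Myadm* ranged from −2.5 to −2.0 and *Anxa2* from −1.5 to −1.0. Rounding, the pull of rlog values towards the gene mean and the lower depth of every NPM1 KD library limit what can be seen for genes with few reads. The mean depth was 0.859 in NPM1 KD against 1.22 in CTR.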
